A study of Sus scrofa with 220 samples.

Results

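Early embryos build an extracellular matrix while their first lineages separate, and 6 genes of that matrix were followed here across the pig embryo from the morula to the spherical blastocyst. They were FN1 (fibronectin, ENSSSCG00000016174), NID2 (nidogen 2, ENSSSCG00000005030), LAMA4 (the laminin α4 chain, ENSSSCG00000004425), HAS2 (a hyaluronan synthase, ENSSSCG00000005992), HAPLN1 (a hyaluronan link protein, ENSSSCG00000014137) and FMOD (fibromodulin, ENSSSCG00000015270). They were picked by symbol from the 22840 gene entries with their levels across the cell types already known, so those levels are given as a description and carry no test. All 6 were detected in at least 1 cell type.

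The data are polyA transcriptomes of 220 single cells from embryos of artificially inseminated pigs, made by the SMART-seq2 protocol and labelled with 7 cell types. These were morula (M, 47 cells), early blastocyst inner cell mass (EB ICM, 24 cells) and trophectoderm (EB TE, 28 cells), late blastocyst epiblast (LB EPI, 25 cells) and hypoblast (LB HYPO, 36 cells), and spherical embryo epiblast (Sph EPI, 48 cells) and hypoblast (Sph HYPO, 12 cells). The labels give no animal age, sex or breed, and no embryo was treated. The paper names crossbred Large White and Landrace sows and inferred the sex of cells from Y chromosome expression. By its count all Sph HYPO cells were male and most LB HYPO cells female, and most other groups were uneven too. The part of sex in the differences between Sph HYPO and LB HYPO, or between other groups, was not tested. The letters of each cell's name were read as its embryo, which gave 28 embryos and left 1 morula cell without an embryo. Of these, 8 gave M cells, 10 EB TE cells and 7 EB ICM cells, 5 LB hypoblast and 4 LB epiblast cells, and 3 Sph hypoblast and 4 Sph epiblast cells, several giving both lineages of their stage. Trophectoderm was removed by immunosurgery at the LB stage and was not collected at the LB and Sph stages. Sph epiblast and hypoblast were separated by hand. Early blastocysts were dissociated whole, and no separation of LB epiblast from hypoblast before sequencing is described. The paper clustered these same transcriptomes and read the lineages from known markers. It names NID2 and FN1 among its hypoblast genes.

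Fibronectin is a secreted glycoprotein that cells assemble into fibrils through integrins. Nidogens tie the laminin network to the collagen network of basement membranes, the thin sheets on which epithelia rest, and the laminin α4 chain belongs to laminins of mesenchymal and vascular basement membranes. Hyaluronan is a long sugar chain extruded by synthases at the plasma membrane, link protein fastens it to versican and related proteoglycans, and fibromodulin binds fibrillar collagens. The hypoblast, or primitive endoderm, is known as a maker of basement membrane, which lies between it and the epiblast.

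Depth was 1012604 to 5696373 counts per cell, with group medians between 1660326 in LB HYPO and 2235587 in Sph EPI. No 2 cells held identical values. Epiblast markers summed to between 661 and 2066 TPM (transcripts scaled by gene length and library) over the LB EPI embryos and 837 to 1156 over the Sph EPI embryos, against 19.6 to 174 in both hypoblasts. Hypoblast markers summed to 91.5 to 633 TPM in LB HYPO and 59.0 to 294 in Sph HYPO, against 0 to 13.7 in both epiblasts, though they also reached 163 to 484 in M and 170 to 305 in EB ICM. The TE list was high in Sph HYPO as well as in EB TE. It summed to 175 to 58487 TPM in EB TE, where the single cell of embryo E6-ER had no KRT8, and to 17627 to 43882 TPM in Sph HYPO, against 2819 to 9052 in Sph EPI and 1765 to 2774 in LB HYPO. In Sph HYPO 6 of the 9 TE markers were above TPM 1 in at least 9 of 12 cells, most of the sum being the keratin KRT8, at 15065 to 34824 TPM. The TE regulator GATA3 was between 11.2 and 34.1 TPM per Sph HYPO embryo, GATA2 did not exceed 0.0215 and CDX2 was at 0. The part of these transcripts in the Sph HYPO results below was not tested.

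FN1 was the most widely detected of the 6 genes and was highest in the hypoblast. Mean TPM per LB HYPO embryo was 1344 in AL, 1065 in AM, 2183 in AN, 667 in AO and 2589 in AP. In Sph HYPO it was 3155 in C, 2449 in E and 964 in F. Every one of the 36 LB HYPO and 12 Sph HYPO cells was above TPM 1, and the lowest single cell still held 320 TPM in LB HYPO and 430 TPM in Sph HYPO. Epiblast levels were far lower, at 15.7, 44.2, 22.6 and 8.61 TPM in LB EPI embryos AN, AO, AP and AQ, and at 14.7, 22.6, 15.5 and 10.96 TPM in Sph EPI embryos C, D, E and F. The hypoblast and epiblast embryos did not overlap at either stage. The log2 fold change of hypoblast over epiblast was 6.25 ± 0.56 (SE, 5 and 4 embryos) at the LB stage and 7.16 ± 0.38 (3 and 4 embryos) at the Sph stage.

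FN1 also separated the ICM from the trophectoderm of the early blastocyst. Mean TPM per EB ICM embryo ran from 40.04 through a median of 129 to 415, and all 24 cells were above TPM 1, each between 7.33 and 912 TPM. In EB TE the range was 0 to 8.88 with a median of 0.260, and 3 of 28 cells were above TPM 1 (10.7%, exact 95% interval 2.27 to 28.2). In M it was 0 to 17.8 with a median of 2.61, and 13 of 47 cells were above TPM 1 (27.7%, 15.6 to 42.6). The ICM embryos lay above all TE and all M embryos, with log2 fold changes of 6.38 ± 1.15 (7 and 10 embryos) and 5.12 ± 0.92 (7 and 8 embryos). Leaving out EB TE embryo AD, which held 651 of the 852 FN1 counts of EB TE, raised the first value to 8.26, and it was 6.22 without embryo E6-ER. By mean TPM the order was Sph HYPO, LB HYPO, EB ICM, LB EPI, Sph EPI, M and EB TE. LB HYPO stood 10.3 times above EB ICM with no overlap of embryos, and EB ICM stood 6.69 times above LB EPI, where the lowest ICM embryo, at 40.04 TPM, lay under the highest LB EPI embryo. Sph HYPO and LB HYPO, LB EPI and Sph EPI, Sph EPI and M, and M and EB TE overlapped, and the log2 fold changes between stages were 0.58 ± 0.36 for the hypoblast and -0.51 ± 0.54 for the epiblast.

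**Figure D1:**
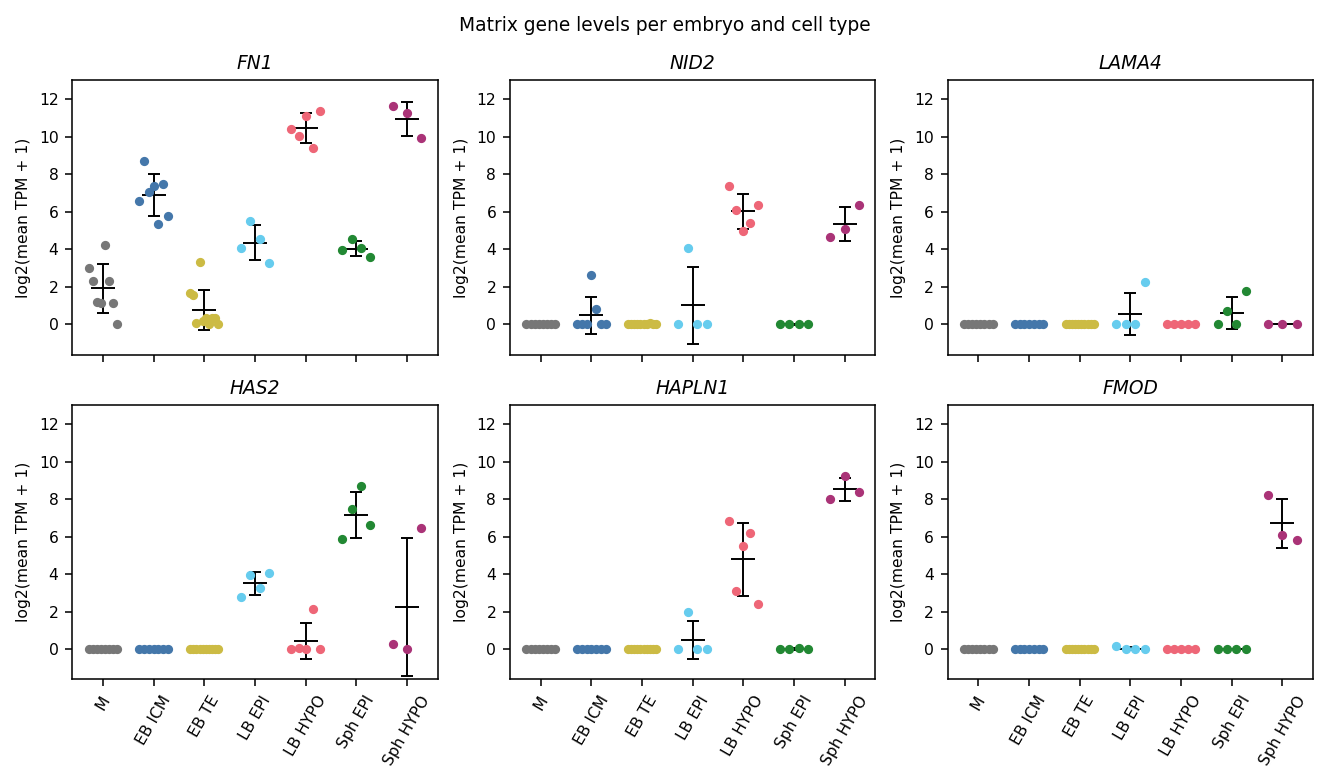
Mean TPM per embryo, as log2(mean TPM + 1) on the vertical axis, of the 6 matrix genes in the 7 cell types. Each point is an embryo, and the bar and whiskers are the mean and SD over embryos of the log2 values. FN1 is highest in both hypoblasts and intermediate in EB ICM, NID2 and HAPLN1 are highest in hypoblast, FMOD is above 1 TPM only in Sph HYPO, HAS2 is highest in Sph EPI and LAMA4 is low throughout.

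NID2 was a hypoblast gene at both stages, at levels well under those of FN1. Mean TPM was 166, 66.1, 30.005, 41.5 and 81.0 in LB HYPO embryos AL, AM, AN, AO and AP, and 23.9, 32.9 and 81.7 in Sph HYPO embryos C, E and F. NID2 passed TPM 1 in 29 of 36 LB HYPO cells (80.6%, exact 95% interval 64.0 to 91.8) and in 11 of 12 Sph HYPO cells (91.7%, 61.5 to 99.8). The hypoblasts overlapped, with a log2 fold change of Sph over LB of -0.46 ± 0.71. In LB EPI only embryo AO had NID2, at 16.02 TPM, and in Sph EPI 3 counts were found over 48 cells. The log2 fold change of LB HYPO over LB EPI was 4.43 ± 1.85 (5 and 4 embryos) and rested on that embryo. Embryo AO held all 400 LB EPI counts. Without it the fit gave 14.15, whose size reflects the lack of LB EPI counts and is not a measurement. The Sph HYPO level was 6755 times the Sph EPI level, with an exact 95% counting interval of 2310 to 32767. That interval, like the others on counts and shares of cells, covers counting error only.

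NID2 was nearly absent before the late blastocyst. No count was found in M, which allows a share of up to 6.38% of cells (3 of 47, the limit used here for a count of 0, with an exact upper bound of 7.55%), and 2 counts were found in EB TE. In EB ICM cells AE18 and AF6 held 10.5 and 2.98 TPM and the other 22 cells none. Detection of FN1 in EB ICM therefore came without NID2 in most cells, whereas in LB HYPO 29 of 36 cells held both.

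LAMA4, the other basement membrane gene, did not follow the hypoblast. Its counts came from 1 LB EPI cell, AQ10, with 37.1 TPM, and from 5 of 48 Sph EPI cells (10.4%, exact 95% interval 3.47 to 22.7), of which the highest held 22.6 TPM. Per embryo this was 3.71 TPM in LB EPI embryo AQ, and 0.631 and 2.45 TPM in Sph EPI embryos D and F, with 0 in the other epiblast embryos. No count was found in M, EB ICM, EB TE, LB HYPO or Sph HYPO. The 0 of 36 LB HYPO cells allow a share of up to 8.33% and the 0 of 12 Sph HYPO cells up to 25% (exact upper bounds 9.74% and 26.5%). Against a floor of 3 counts over the group, LAMA4 was at least 57.5-fold lower in LB HYPO than LB EPI and at least 26.6-fold lower in Sph HYPO than Sph EPI, a difference carried by 6 cells in all.

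HAS2 was first seen in the late blastocyst and was an epiblast gene in most embryos. Mean TPM in LB EPI was 5.81, 14.3, 8.67 and 15.9 in embryos AN, AO, AP and AQ. In Sph EPI it was 56.9 in C, 177 in D, 411 in E and 98.9 in F. The Sph EPI embryos all lay above the LB EPI embryos, and the share of cells above TPM 1 was 43 of 48 (89.6%, exact 95% interval 77.3 to 96.5) against 5 of 25 (20%, 6.83 to 40.7). The log2 fold change of Sph EPI over LB EPI was 4.23 ± 0.70 (4 and 4 embryos) and ran from 3.51 to 4.62 when each embryo was left out. No HAS2 count was found in M, EB ICM or EB TE, with the same kind of upper limit, 6.38%, 12.5% and 10.7% of cells.

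In hypoblast, HAS2 depended on the embryo. LB HYPO embryos AM and AO held 0.0718 and 3.37 TPM, the latter from a single cell at 53.5 TPM, and AL, AN and AP held none. The LB HYPO embryos lay below all LB EPI embryos, with a log2 fold change of -4.08 ± 1.97. Without LB HYPO embryo AO only 2 LB HYPO counts were left, and the fit's -8.10 has no reliable size. Sph HYPO embryos C, E and F held 0.203, 0 and 87.6 TPM, so F lay within the Sph EPI range and C and E below it. The log2 fold change of Sph HYPO over Sph EPI was -2.65 ± 1.73, and -7.46 with embryo as a block. Without Sph HYPO embryo F only 1 Sph HYPO count was left, and the fit's -10.79 has no reliable size. The log2 fold change of Sph HYPO over LB HYPO was 5.89 ± 2.52. It turned to -2.17 without Sph HYPO embryo F and was 9.76 without LB HYPO embryo AO, fits with the same 1 and 2 counts left in a group.

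HAPLN1, whose product couples hyaluronan to proteoglycans, was found on the other side, in the hypoblast. In LB HYPO mean TPM was 111, 7.75, 44.8, 72.7 and 4.24 in embryos AL, AM, AN, AO and AP, and 14 of 36 cells were above TPM 1 (38.9%, exact 95% interval 23.1 to 56.5). In Sph HYPO it was 252, 589 and 332 in embryos C, E and F, and all 12 cells were above TPM 1 (73.5 to 100). The Sph HYPO embryos all lay above the LB HYPO embryos, with a log2 fold change of 3.30 ± 0.74 (3 and 5 embryos). In LB EPI 1 cell of embryo AO, AO27, passed TPM 1, which gave that embryo 2.97 TPM. LB HYPO exceeded LB EPI by a log2 fold change of 6.14 ± 1.96. All 63 LB EPI counts were in embryo AO, so the fit's 13.21 without it is not a measured size. Sph EPI had 3 counts in 48 cells, and the Sph HYPO level was 30280 times higher, with an exact 95% counting interval of 10360 to 146842. M, EB ICM and EB TE had no count.

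FMOD was the narrowest of the 6. Sph HYPO embryos C, E and F held 294, 67.2 and 55.2 TPM, from 8 of 12 cells (66.7%, exact 95% interval 34.9 to 90.1). Outside Sph HYPO a single count was found, in LB EPI. Against a floor of 3 counts over the group, FMOD was at least 7053-fold higher in Sph HYPO than Sph EPI and at least 4013-fold higher than in LB HYPO. The 0 of 36 LB HYPO cells allow a share of up to 8.33% of cells with FMOD. All 3 Sph HYPO embryos carried it, so the difference did not rest on a single embryo.

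**Figure D2:**
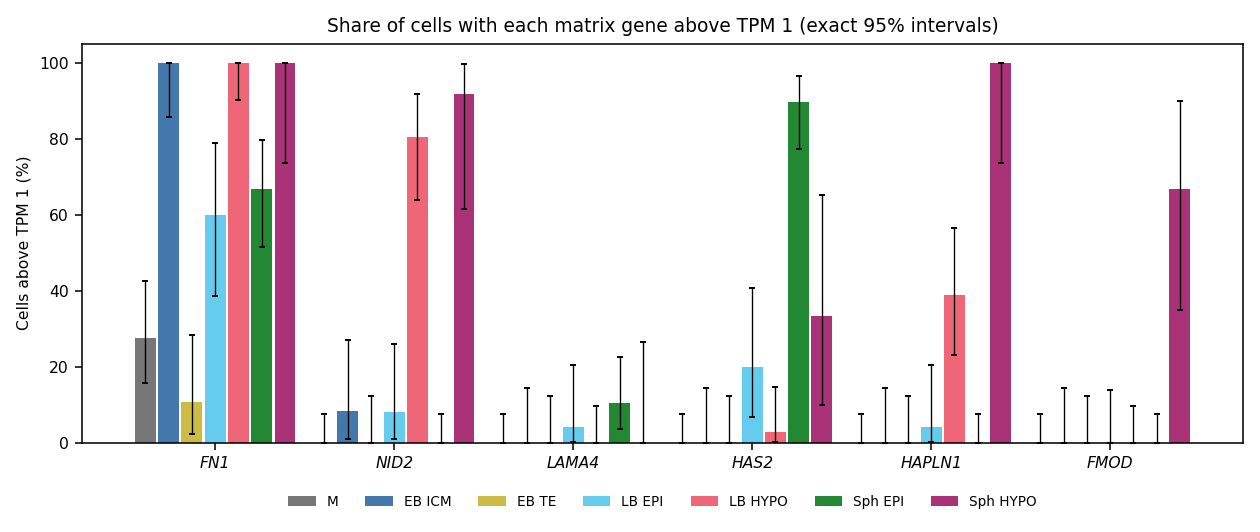
Percentage of cells above TPM 1 for each of the 6 genes in the 7 cell types, with exact 95% binomial intervals. FN1 reaches 100% in EB ICM, LB HYPO and Sph HYPO, HAS2 reaches 89.6% in Sph EPI and FMOD stands above 0 only in Sph HYPO.

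Counted per cell, the number of the 6 genes above TPM 1 differed by lineage. Of 47 M cells 34 had none, as had 25 of 28 EB TE cells. In EB ICM 22 of 24 cells had 1 gene, which was FN1. In LB HYPO 20 of 36 cells had 2 genes and 12 had 3, and in Sph HYPO 4 of 12 cells had 4 genes and 4 had 5. In Sph EPI 28 of 48 cells had 2 genes, and 29 cells held both FN1 and HAS2. NID2 and HAPLN1 met in 11 LB HYPO cells, with 18 cells having NID2 alone, 3 having HAPLN1 alone and 4 having neither.

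The 12 Sph HYPO cells were few enough to be read individually. The cells C3 and C4 had 4100 and 2210 TPM of FN1, 289 and 215 TPM of HAPLN1, and 199 and 389 TPM of FMOD. The cells E6 and E8 had like FN1, at 2471 and 2427 TPM, and like HAPLN1, at 585 and 594 TPM, but NID2 and FMOD were at 65.9 and 134 TPM in E6 and at 0 in E8. The 8 cells of embryo F varied most. HAS2 was at 97.4, 125, 41.5 and 437 TPM in cells F1, F3, F5 and F7, and at 0 in F2, F4, F6 and F8. HAPLN1 was at 30.6, 36.5, 154 and 86.4 TPM in F1, F3, F5 and F7, and at 480, 921, 175 and 769 TPM in F2, F4, F6 and F8. FN1 was at 1109, 1237, 993 and 2544 TPM in the former cells and at 430, 432, 465 and 503.9 TPM in the latter. In embryo F the 4 cells highest in HAS2 were thus also the 4 highest in FN1 and the 4 lowest in HAPLN1. The epiblast gene PRDM14 was at 0 in all cells with HAS2 above TPM 1, SALL2 did not exceed 0.159 TPM, and the hypoblast gene HNF4A was between 24.8 and 66.5 TPM in those cells. NODAL, also on the epiblast list, was at 50.3, 119, 54.2 and 0 TPM in F1, F3, F5 and F7, and at 259, 89.4 and 74.0 TPM in C3, C4 and F8. Over the 12 cells Spearman's rho of HAPLN1 and HAS2 was -0.80, a description over cells that come from 3 embryos.

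**Figure D3:**
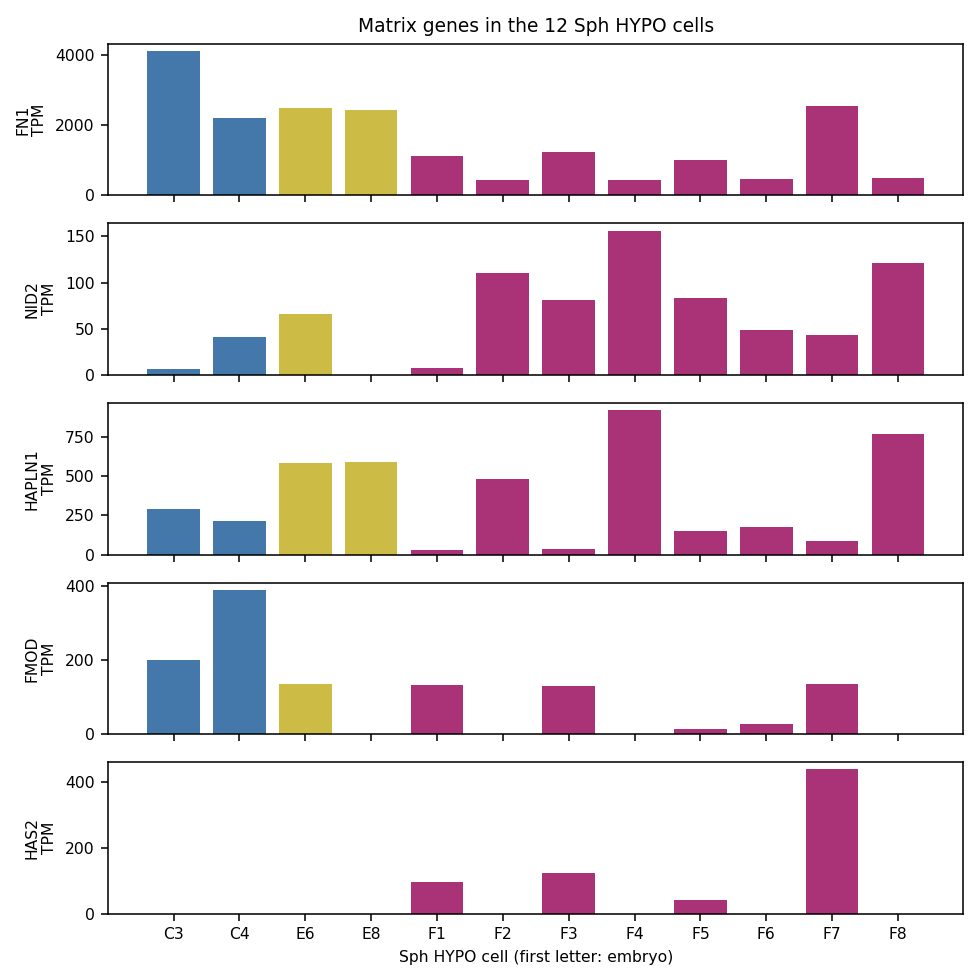
TPM of FN1, NID2, HAPLN1, FMOD and HAS2 in each of the 12 Sph HYPO cells, in bars coloured by embryo (C, E and F), each panel with its own linear axis from 0. HAS2 stands only in cells F1, F3, F5 and F7 at this scale, where HAPLN1 is between 30.6 and 154 TPM.

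The LB EPI signal of NID2 and HAPLN1 came mainly from 2 cells of embryo AO. Cell AO12 held 69.0 TPM of NID2 with no HAPLN1 or HAS2. Cell AO27 held 10.995 TPM of NID2, 14.7 of HAPLN1, 72.2 of FN1 and 71.7 of HAS2, the only LB EPI cell with 4 of the 6 genes. PRDM14 and NODAL, epiblast markers, were at 0 in both cells, and GATA6 was at 11.1 TPM in AO12. The part of these cells' identity in the LB EPI values was not tested.

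The wider matrix was read through 4 lists of genes: fibronectin receptors and assembly, basement membrane, hyaluronan, and small leucine-rich proteoglycans with fibrillar collagens. Of 108 symbols 89 were matched and 69 were tested, 17, 18, 18 and 16 by list. The lists were chosen with earlier results of these data known. Their call counts and medians beside those of all genes are therefore a description and not a test of the lists. Tests were run with edgeR's quasi-likelihood test with Benjamini-Hochberg adjustment over 14721 genes, on counts summed per embryo and cell type, and a gene was called at an adjusted p under 0.05. Comparisons that share a group share its embryos. Lineage labels were read at least in part from these same transcriptomes, so p-values and non-overlap between lineages are not independent of the labels.

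In EB ICM against EB TE, 1 of the 69 genes was called, against 0.754% of all genes (0.571% higher and 0.183% lower in ICM), and 28 had an unadjusted p under 0.05, as had 18.9% of all genes. The called gene was VCAN (ENSSSCG00000014136), the versican core protein, which binds hyaluronan. VCAN ran from 12.4 through a median of 38.003 to 90.6 TPM over the ICM embryos and reached 0.055 at most in TE. Its log2 fold change was 11.90 ± 0.85 (adjusted p = 2.94e-08, edgeR's quasi-likelihood test), and it was called in all 17 fits that left out an embryo. It stands next to HAPLN1 in the gene order of the RefSeq assembly Sscrofa11.1. The 3 other lists had no call, with 8 fibronectin, 7 basement membrane and 5 proteoglycan and collagen genes at an unadjusted p under 0.05. Median log2 fold changes of the lists, in the order above, were 1.12, 1.36, 1.07 and 0.69, the last becoming 0 with genes absent from a group set to their bound, against 0.09 over all genes with a count. With DESeq2 6 of the 69 genes were called, against 4.59% of the genes it tested, and with limma 2, against 1.54%.

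In EB ICM against M, 5 of the 69 genes rose and none fell, against 2.45% of all genes called (1.48% higher and 0.971% lower in ICM), and 29 had an unadjusted p under 0.05, as had 23.4% of all genes. ITGA5, the α subunit of the main fibronectin receptor, went from at most 0.172 TPM in any M embryo to between 34.9 and 126 TPM in ICM embryos, a log2 fold change of 10.25 ± 0.88 (edgeR adjusted p = 1.28e-06). VCAN rose by 4.67 ± 0.92 (edgeR adjusted p = 0.00757). Both were called in all 15 fits without an embryo. ITGAV, an integrin α subunit with several matrix ligands, rose by 2.24 ± 0.59 (edgeR adjusted p = 0.0488). The nidogen NID1 was 299 times higher (counting interval 52.9 to 11891, edgeR adjusted p = 0.0439) and LAMC3, a laminin γ chain, at least 354-fold higher (edgeR adjusted p = 0.0488), both with overlapping embryos. These last 3 were called in only 1, 3 and 3 of those 15 fits. NID1 reached a mean of 2.36 TPM in ICM, so it too was low beside FN1. The list medians were 1.27, 1.52, 0.62 and -1.68, the last being -0.80 with bounds, against -0.17 over all genes with a count.

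In LB HYPO against LB EPI, 5 of the 69 genes rose and none fell, against 1.92% of all genes called (1.03% higher and 0.897% lower in hypoblast), and 28 had an unadjusted p under 0.05, as had 20% of all genes. Those called were laminin chains and genes of fibronectin binding and collagen modification. LAMC1, the laminin γ1 chain, was between 88.3 and 229 TPM in hypoblast embryos and at most 13.1 in epiblast, a log2 fold change of 5.13 ± 0.9999 (edgeR adjusted p = 0.0193). LAMA1, the laminin α1 chain, was between 33.2 and 78.3 TPM in hypoblast and had no count in epiblast, so that it was at least 374-fold higher (edgeR adjusted p = 0.0260), in an entry that is among the 16 the authors added to the annotation. FBLN2, fibulin 2, which binds fibronectin and nidogen, rose from at most 36.7 to at least 152 TPM, by a log2 fold change of 4.50 ± 1.01 (edgeR adjusted p = 0.0392). ITGB1, the integrin β1 subunit, rose by 1.40 ± 0.29 (edgeR adjusted p = 0.0260), and PLOD1, a collagen lysyl hydroxylase, by 2.85 ± 0.65 (edgeR adjusted p = 0.0409).

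The basement membrane list as a whole lay high in LB HYPO, with a median log2 fold change of 3.57 over its 17 genes with a count, or 3.54 with genes at 0 in a group set to their bound, against -0.14 over all genes. The laminin β1 chain LAMB1 and NID1 did not pass, with log2 fold changes of 4.07 ± 1.06 and 5.41 ± 1.73 (edgeR adjusted p = 0.0770 and 0.163), although no hypoblast embryo of either overlapped the epiblast embryos. The fibronectin list had a median of 0.47, which became -0.03 with bounds, the hyaluronan list 0.50 and the proteoglycan and collagen list -0.24. Epiblast and hypoblast of 3 embryos were paired, and with embryo as a block none of the 5 genes was called (edgeR adjusted p from 0.0982 to 0.667). No gene of the 5 was called in all 9 fits without an embryo. LAMC1 was called in 8 and lost without LB EPI embryo AQ, and the other 4 were called in 5 or fewer.

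In Sph HYPO against Sph EPI, 4 of the 69 genes rose and 1 fell, against 1.13% of all genes called (0.571% higher and 0.564% lower in hypoblast). Here 34 of the 69 and 15.2% of all genes had an unadjusted p under 0.05, and the median log2 fold change of all tested genes was itself -0.57. VCAN rose by 3.64 ± 0.52 (edgeR adjusted p = 0.00835), from between 4.23 and 16.6 TPM in epiblast embryos to between 61.4 and 193 TPM in hypoblast embryos, and was called in all 7 fits without an embryo, while the 4 genes that follow were called in 2 to 5 of them. FBLN2 rose by 7.85 ± 1.52 (edgeR adjusted p = 0.0362) and LAMB1 by 2.39 ± 0.42 (edgeR adjusted p = 0.0215). FBN2, the microfibril protein fibrillin 2, was 9701 times higher (counting interval 1739 to 383354, edgeR adjusted p = 0.0208), from 6 of 12 cells. COL11A1, a chain of a fibrillar collagen, was between 8.01 and 47.96 TPM in epiblast embryos and had no count in hypoblast, at least 370-fold lower (edgeR adjusted p = 0.0292). With embryo as a block over 3 pairs, VCAN and FBLN2 remained called (edgeR adjusted p = 0.00721 and 0.0162) and the other 3 did not (0.109 to 0.143). With all 7 groups in a single model only FBLN2 remained called (edgeR adjusted p = 0.028), and VCAN was lost (edgeR adjusted p = 0.148). Without Sph HYPO embryo F, 12 of the 69 genes were called, as were 3.96% of all genes. The basement membrane list had a median of 2.43, the fibronectin list 0.35, the hyaluronan list -1.22 and the proteoglycan and collagen list -5.69 (-1.71 with bounds), against -0.69 over all genes with a count.

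Between stages few of these genes were called. In Sph EPI against LB EPI edgeR called none of the 69, against 0.156% of all genes (0.0611% higher and 0.0951% lower at the Sph stage), with 8 at an unadjusted p under 0.05 against 13.6% of all genes. DESeq2 called 4, against 7.33% of the genes it tested, and limma 0, against 0.659%. In Sph HYPO against LB HYPO edgeR called 1, against 0.163% of all genes (0.115% higher and 0.0476% lower at the Sph stage), with 13 at an unadjusted p under 0.05 against 9.52% of all genes. This was PLOD2, another collagen lysyl hydroxylase, with 137 to 592 TPM in Sph HYPO embryos and at most 2.49 in LB HYPO, a log2 fold change of 10.65 ± 1.74 (edgeR adjusted p = 0.0240), and it was lost without LB HYPO embryo AP or Sph HYPO embryo C. LAMA1 and NID1 had log2 fold changes of -3.61 ± 2.20 and -2.86 ± 0.87 and did not pass (edgeR adjusted p = 0.534 and 0.369).

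**Figure D4:**
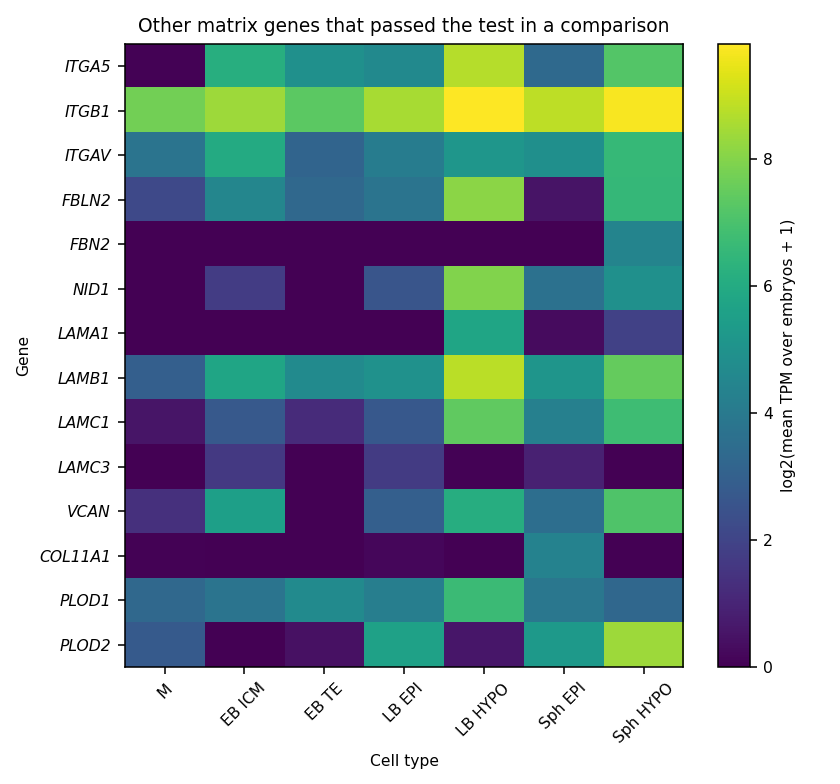
Mean TPM over embryos, as log2(mean TPM + 1) on the colour scale, of the 14 listed matrix genes called in at least 1 comparison, in the 7 cell types. LAMA1, LAMB1, LAMC1, NID1, FBLN2 and ITGA5 are brightest in LB HYPO, VCAN is bright in EB ICM and both hypoblasts, and COL11A1 is visible only in Sph EPI.

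The genes with the pattern most like each of the 6 were found by Pearson's r of log2(CPM + 1) over the 41 embryo and cell type sums, which share libraries and stages, among 9399 genes. VCAN was nearest to FN1 (r = 0.89), followed by the gap junction gene GJB1 (0.85) and the apolipoprotein APOC3 (0.84). HABP2 (0.94), the apolipoprotein APOM (0.88) and the lipid transfer gene MTTP (0.87) were nearest to NID2, and APOM (0.95), TNNC1 (0.93) and HABP2 (0.93) to HAPLN1. HHIP (0.95), FAM200A (0.93) and ADGRL2 (0.92) were nearest to HAS2. HHIP, which binds hedgehog ligands, had a mean of 142 TPM over Sph EPI cells, 46.9 over Sph HYPO cells, 41.5 over LB EPI cells and 1.34 over LB HYPO cells. DNTT (0.99), WNT1 (0.97) and CFB (0.96) were nearest to FMOD, which had a count in 4 of the 41 sums, and CPAMD8 (0.97), ADAMTS4 (0.97) and KCNK13 (0.95) to LAMA4, which had counts in 3. Among the 6 genes NID2 and HAPLN1 were the most alike (0.90), followed by FN1 and NID2 (0.76), FMOD and HAPLN1 (0.74) and FN1 and HAPLN1 (0.72). HAS2 was most like LAMA4 (0.49), and its r with HAPLN1 was 0.05.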

How the data were processed

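Single cells were prepared by SMART-seq2 with Nextera XT libraries, without molecular identifiers. The authors trimmed reads, aligned them with HISAT2 2.1.0 to Sus scrofa 10.2 and counted reads per gene with HTSeq on the Ensembl annotation plus 16 added entries. The strand setting is not given in the sources used here, so antisense or overlapping genes cannot be told apart. In the RefSeq assembly Sscrofa11.1 the entry LOC102165705 overlaps HAPLN1, and none overlaps FN1, NID2, LAMA4 or FMOD. HAS2 was not found there by symbol. The part of LOC102165705 in the HAPLN1 counts was not tested. The deposited values used were raw counts per gene and the authors' TPM values.

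Levels are means of TPM over the cells of an embryo and cell type. Counts were summed per embryo and cell type into 41 sums and fitted with edgeR 4.0.16 (TMM, quasi-likelihood test, the groups of each comparison only, 14721 genes above TPM 1 in at least 3 cells, Benjamini-Hochberg over all of them, threshold 0.05). The script was tested on simulated data. A group without counts was set to 3 counts in all for a lower bound. Intervals are exact Clopper-Pearson 95% intervals, and the limit for a share of 0 is 3 cells of the group. The members and lists were chosen with earlier results of these data known. The genes named were the 6 members, every listed gene called, the markers, the 3 genes most like each member, and LAMB1, LAMA1 and NID1 where not called, which were chosen after their values were seen. Alternatives were DESeq2 1.42.0, limma 3.58.1 on log2(TPM + 1), RLE size factors, no filter on low values, all 7 groups in a single model, sums of at least 2 cells, the first or last 4 of 8 sequencing pools, embryo as a block, and leaving out each embryo.

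Cells of the same embryo in both lineages come from the same animal, which is the source of the pairing. Deviations from group means had a median same-embryo correlation of 0.054 at the EB stage (7 pairs), 0.023 at the LB stage (3 pairs) and 0.067 at the Sph stage (3 pairs). Whether embryos came from separate litters is not given, and p-values measure the spread between these embryos. For AP-ER2 and E6-ER2, whose names differ in form, the embryo is a weaker reading. Matrix genes of the lists without a match by symbol were not analysed here, no sequence is shown, and not every marker's level in single cells is reported here.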

Additional observations from a re-analysis of the deposited data

Results flagged for a closer look

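In 6 of 16 groups of 4 to 10 embryos with a mean TPM of at least 1 in the highest embryo, a single embryo stood apart from the rest by Dixon's test on log2(mean TPM + 1). The test's 5% chance rate does not hold for most of these groups, where all or most of the other embryos were at 0 and a single cell can set the gap. FN1 was at 8.875 TPM in embryo AD of EB TE. NID2 was at 5.238 TPM in embryo AE of EB ICM and at 16.02 TPM in embryo AO of LB EPI. LAMA4 was at 3.71 TPM in embryo AQ of LB EPI, HAPLN1 at 2.968 TPM in embryo AO of LB EPI and HAS2 at 3.370 TPM in embryo AO of LB HYPO. The NID2, LAMA4 and HAPLN1 values in LB EPI stood over embryos at 0, and embryo AO carried 3 of the 6 values.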

How the results depend on the processing

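Counts of called matrix list genes moved with the tool. For ICM against TE, ICM against M, LB HYPO against EPI, Sph HYPO against EPI, Sph EPI against LB EPI and Sph HYPO against LB HYPO, the main counts were 1, 5, 5, 5, 0 and 1. They were 6, 14, 18, 24, 4 and 4 with DESeq2, 2, 7, 13, 5, 0 and 0 with limma and 13, 8, 0, 1, 0 and 0 with all 7 groups in a single model. With embryo as a replicate block they were 1 for ICM against TE, 0 for LB HYPO against EPI and 2 for Sph HYPO against EPI, and no paired analysis was possible for the others because their groups share no embryo. The first 4 pools gave 1, 1, 1, 2, 0 and 2 and the last 4 pools 1, 3, 1, 2, 0 and 2. No filter on low values gave 2 for ICM against M, and sums of at least 2 cells gave 3 for LB HYPO against EPI. Leaving out embryos gave 1 to 2, 2 to 6, 1 to 7, 1 to 12, 0 to 0 and 0 to 3. Over all genes the called numbers were 111, 361, 283, 167, 23 and 24 with edgeR and 457, 1216, 1387, 1452, 828 and 342 with DESeq2 (4.59, 11.4, 13.4, 13.5, 7.33 and 3.87% of the genes it tested). Pairing by embryo also moved some log2 fold changes of the 6 genes, without turning any. With embryo as a block, FN1 was at 8.34 in ICM over TE, 6.26 in LB HYPO over EPI and 7.12 in Sph HYPO over EPI. In LB HYPO over EPI NID2 was at 8.86, HAPLN1 at 7.86 and HAS2 at -5.87, and in Sph HYPO over EPI HAS2 was at -7.46. Among the 6 genes, the log2 fold changes that turned were between stages. FN1 became 0.10 in epiblast without LB EPI embryo AO and -0.12 in hypoblast with the last 4 pools, NID2 in hypoblast 0.52 with the last 4 pools, and HAS2 in hypoblast -2.17 without Sph HYPO embryo F. That HAS2 value rests on 1 remaining Sph HYPO count. LAMA4 in epiblast went from 0.30 to -2.14 with the last 4 pools, to -0.11, -0.11 and -0.12 without LB EPI embryos AN, AP and AO, and to -2.03 without Sph EPI embryo F. The cause was not tested. Of 84 shares of cells under another TPM threshold 79 moved by less than their interval, and 36 of 36 correlations stayed within their interval. Hypoblast at the Sph stage rests on 12 cells of 3 embryos.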
